A study of Mus musculus with 24 samples.

Results

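Transcripts of 10 interferon-inducible GTPases were followed in the skin of C3H/HeJ mice with AA before and after treatment with JAK inhibitors. The genes were chosen by name and comprise 6 guanylate-binding proteins, Gbp2, Gbp3, Gbp4, Gbp5, Gbp6 and Gbp7, and 4 immunity-related GTPases, Irgm1, Irgm2, Igtp and Iigp1. Each name matched 1 of the 27179 genes in the count table, and all 10 were among the 17770 genes that had enough counts to be tested. The RNA-Seq series held 24 libraries of skin biopsies. Pretreatment libraries numbered 6, with 1 labelled for each treatment arm. After treatment there were 3 libraries per arm, and the arms were vehicle, the JAK1 inhibitor INCB039110 (JAK1i), the JAK2 inhibitor CEP-33779 (JAK2i), the JAK3 inhibitor PF-06651600 (JAK3i), ruxolitinib, which inhibits JAK1 and JAK2, and tofacitinib, a pan-JAK inhibitor. According to the methods, mice were dosed systemically, with 50 mg/kg of JAK1i or JAK2i and 30 mg/kg of the other inhibitors, and only inhibitors of the same dose were compared with each other. The labels, in contrast, describe an ointment of 2% (w/w) and name the vehicle libraries as untreated. All mice were C3H/HeJ with AA, so no group shows skin without disease. The methods name skin grafts and T cell transfer as the ways of inducing AA, but not which was used for these mice, and neither their age nor the time of these biopsies is tied to the libraries. No source says that the 3 libraries of a group came from separate mice. The p-values thus measure the spread between libraries of the same group, pooled over all groups, which may be technical.

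Guanylate-binding proteins are large GTPases of the dynamin superfamily, and immunity-related GTPases are a smaller family that has expanded in the mouse. Both are induced by interferon-γ (IFN-γ), whose receptor signals through JAK1 and JAK2, and both act at the membranes that enclose intracellular pathogens, where they recruit each other and the autophagy and inflammasome machinery. In AA, IFN-γ from T cells around the hair follicle raises MHC expression and chemokines in the skin. Type I interferons also induce many of these GTPases.

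The genes lie on 4 chromosomes. Gbp2, Gbp3, Gbp5 and Gbp7 are on chromosome 3 (GRCm38.p6, for example Gbp2 at chr3:142620663-142638008), Gbp4 and Gbp6 on chromosome 5 (chr5:105115767-105139586 and chr5:105270702-105295871), Irgm1, Irgm2 and Igtp on chromosome 11 (chr11:48865245-48871420, chr11:58214977-58222783 and chr11:58199556-58207592), and Iigp1 lies apart from them. The RefSeq promoter table of the same build held entries for 7 of the 10 genes, each covering 250 bases before to 50 bases after the annotated start. Their sequences were searched for the γ-activated site (GAS), TTCNNNGAA, an element of IFN-γ target genes, and for the core of the interferon-stimulated response element (ISRE), GAAANNGAAA, which is bound by interferon regulatory factors, on both strands. They are the C57BL/6J reference and not the sequence of C3H/HeJ. The stretch just before the start is shown here for 1 entry of each gene, 250 bases for Gbp5 and 120 bases for the others. A link of these sequences to the changes that follow was not tested. Capitals mark GAS and ISRE core matches, the latter on either strand.
Gbp2 (chr3:142620543-142620662, + strand): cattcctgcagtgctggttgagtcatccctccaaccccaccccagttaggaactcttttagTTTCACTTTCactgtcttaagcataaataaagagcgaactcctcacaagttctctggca
Gbp3 (chr3:142559924-142560043, + strand): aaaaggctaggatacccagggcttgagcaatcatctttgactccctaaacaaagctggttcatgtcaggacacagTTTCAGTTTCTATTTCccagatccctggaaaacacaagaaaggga
Gbp5 (chr3:142496684-142496933, + strand): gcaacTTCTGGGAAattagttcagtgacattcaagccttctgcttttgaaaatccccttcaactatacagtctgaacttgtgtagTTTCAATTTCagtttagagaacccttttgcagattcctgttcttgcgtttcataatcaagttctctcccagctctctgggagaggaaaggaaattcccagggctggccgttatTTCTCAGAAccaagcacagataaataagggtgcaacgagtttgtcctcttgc
Gbp7 (chr3:142530216-142530335, + strand): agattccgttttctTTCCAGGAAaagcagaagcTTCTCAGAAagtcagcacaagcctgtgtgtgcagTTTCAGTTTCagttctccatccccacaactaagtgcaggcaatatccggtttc
Irgm1 (chr11:48871421-48871540, - strand): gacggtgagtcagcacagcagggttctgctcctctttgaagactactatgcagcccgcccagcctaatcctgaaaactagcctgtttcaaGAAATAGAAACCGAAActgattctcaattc
Irgm2 (chr11:58214857-58214976, + strand): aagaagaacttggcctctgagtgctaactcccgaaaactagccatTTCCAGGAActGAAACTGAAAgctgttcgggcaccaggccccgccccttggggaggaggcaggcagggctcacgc
Igtp (chr11:58199436-58199555, + strand): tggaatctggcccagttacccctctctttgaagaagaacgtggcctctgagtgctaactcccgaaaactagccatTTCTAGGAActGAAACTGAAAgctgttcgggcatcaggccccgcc

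An ISRE core was present in all 7 of these genes, whereas 3.44% of the 32851 promoter entries of the same length in the table held one. A GAS was present in 4 genes, Gbp5, Gbp7, Irgm2 and Igtp, against 8.3% of all entries. In Irgm2 and Igtp the GAS and the ISRE core were separated by the same dinucleotide, and the ISRE cores were identical. Gbp3 and Irgm1 each carried a pair of ISRE cores that overlap. Gbp3 has a further entry in the table, which held no match. A match to these letters is a description of the sequence and shows no binding, and its absence from this window says nothing about a factor.

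**Figure D1:**
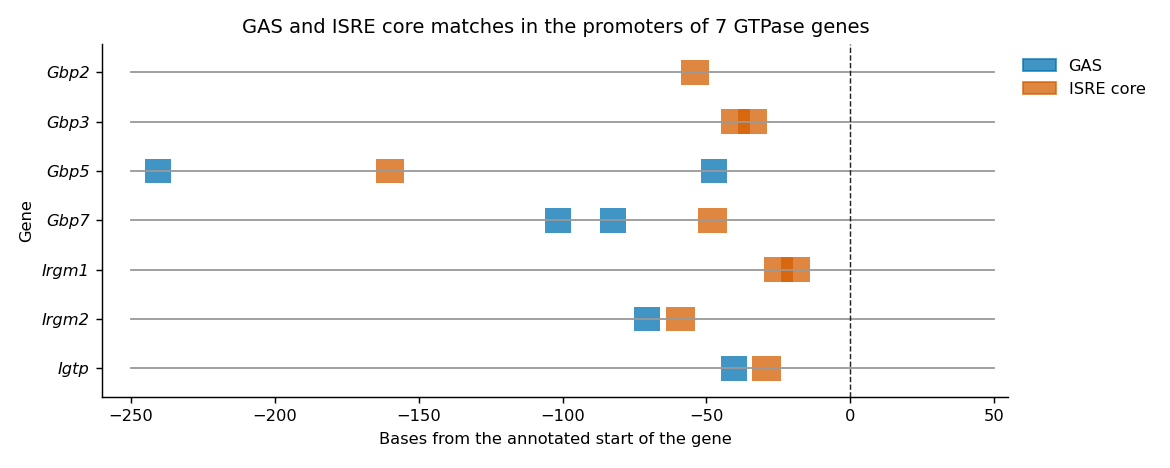
Positions of GAS and ISRE core matches, in bases from the annotated start, in 1 promoter entry of each of 7 GTPase genes. All 7 genes have an ISRE core before the start, and the matches of Gbp3 and of Irgm1 overlap.

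The depth was 17311913 to 21858670 counts per library. The GTPases are given as CPM, which are counts divided by a library size scaled by the trimmed mean of M values (TMM). Differences are log2 fold changes of edgeR's quasi-likelihood test with all 24 libraries in 1 fit. In this fit each gene has 1 estimate of spread, shared by all groups. A gene was called at an adjusted p below 0.05 over the 17770 genes. JAK1i, JAK3i, ruxolitinib and tofacitinib libraries differed from vehicle in transcripts that mark other tissue. Skeletal muscle transcripts took 0.837 to 1.11% of the counts in vehicle and 5.33 to 12.0% in JAK1i, and hair shaft keratins took 0.452 to 0.835% in vehicle and at most 0.0294% in JAK1i. In bulk skin, fewer cells that express a gene and less RNA per cell cannot be told apart. The group of each library was taken from the header of the count table, which repeats the sample titles. A further table of 5 ALADIN genes, a set of disease markers, uses other names for 6 of its 24 columns: in the values of these genes, 2 libraries each of JAK1i, JAK2i and JAK3i stand under the name of another of these groups. Under the names of that table, an alternative chosen after seeing the data, edgeR called 0 of the 10 GTPases and 0 of 17770 genes for JAK1i, JAK2i or JAK3i against vehicle, with 4780, 3914 and 3214 genes at an unadjusted p below 0.05, and DESeq2 was not run on these names. The medians of the 10 log2 fold changes were then -1.11, -1.35 and -1.24. Every result on JAK1i, JAK2i and JAK3i therefore rests on the header of the count table. Ruxolitinib, tofacitinib, vehicle and pretreatment have the same names in both tables.

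Before treatment and with vehicle, all 10 GTPases were abundant and varied little. Iigp1, an effector GTPase that coats the vacuole of Toxoplasma, was at 529.9, 631 and 708 CPM (lowest, median and highest of 6) before treatment and at 636, 582 and 635 with vehicle. Gbp5, linked to NLRP3 inflammasome activation in mouse macrophages, was at 78.8, 93.1 and 109.7 before treatment and at 98.1, 84.6 and 90.3 with vehicle. Divided by the combined length of their exons, the levels with vehicle ran from 13.7 ± 1.02 CPM per kilobase (SD, n = 3) for Gbp5 to 224 ± 12.5 for Igtp, with Iigp1 at 106 ± 5.31 and Gbp2 at 96.5 ± 4.59. The order below Igtp was Iigp1, Gbp2, Irgm2 (73.8 ± 4.45), Gbp7 (54.0 ± 2.30), Irgm1 (50.1 ± 0.816), Gbp3 (46.9 ± 2.16), Gbp6 (39.1 ± 2.17), Gbp4 (30.6 ± 2.84) and Gbp5. The ranges of the libraries overlapped only between Iigp1 and Gbp2, and no difference between neighbours was tested. Exon lengths are those of GENCODE vM21, while the annotation behind the counts is not given in the sources used here.

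No GTPase was called between vehicle and pretreatment, with log2 fold changes between -0.06 and 0.10 (median 0.01) and overlapping libraries for each gene. In this comparison edgeR called 0% of the 17770 genes, and so did DESeq2, while 232 genes and none of the GTPases had an unadjusted p below 0.05 with edgeR. The 95% interval of the difference lay within 1 log2 unit on either side for 9 of the 10 genes, and that of Iigp1 was -1.08 to 1.03.

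With JAK2i no GTPase was called against vehicle. Gbp2, which is prenylated and accumulates on pathogen vacuoles, was at 241, 263 and 262 CPM with JAK2i and at 255, 232 and 241 with vehicle. Igtp, also known as Irgm3 and one of the regulatory GTPases that hold effectors inactive on the cell's own membranes, was at 455, 454 and 475 with JAK2i and at 453, 428 and 479 with vehicle. Iigp1 was at 628, 616 and 725 with JAK2i. The libraries of both groups overlapped for each of the 10 genes, and the log2 fold changes lay between -0.04 and 0.09 (median 0.05). The share of all genes tested that was called was 0%, with 213 genes and none of the GTPases at an unadjusted p below 0.05 by edgeR and 0 genes called by DESeq2. The intervals allowed a change of up to 0.41 log2 units in either direction for Gbp3 (-0.39 to 0.41). They allowed over 1 log2 unit for Irgm2 (-1.09 to 1.11), Igtp (up to 1.05) and Iigp1 (-1.13 to 1.30). Since the spread of a gene was shared by all groups, these widths do not describe the JAK2i and vehicle libraries alone. The coefficient of variation (SD over mean) of Igtp was 2.57% in JAK2i and 5.57% in vehicle. It was 105% in JAK1i and 69.9% in tofacitinib.

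**Figure D2:**
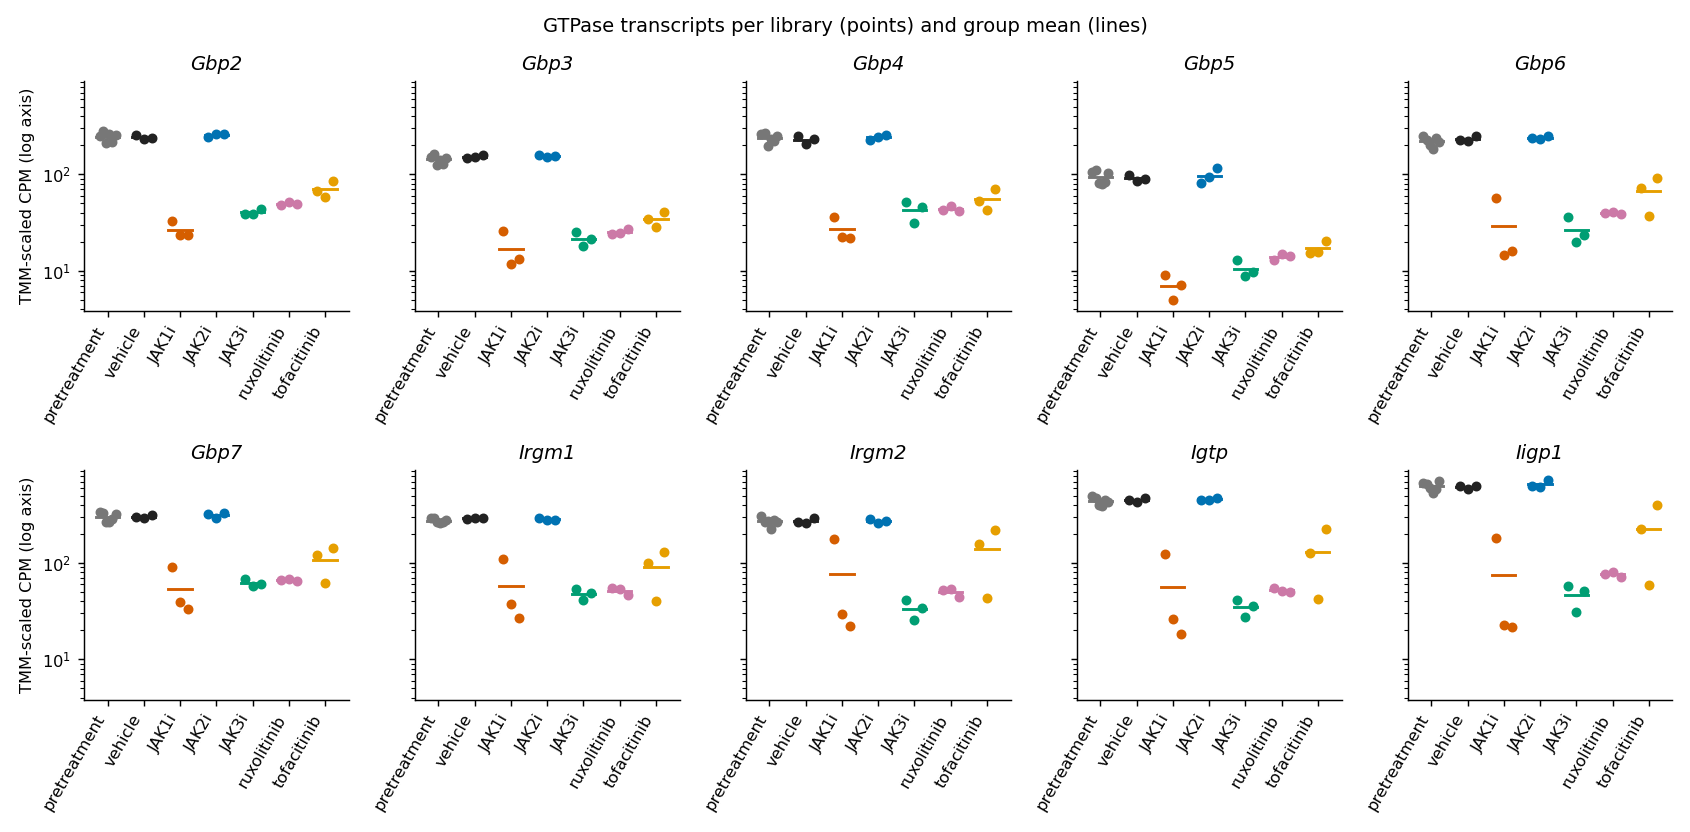
TMM-scaled CPM of the 10 GTPases (log axis) in each of 24 libraries (points), with the mean of each group (lines). Pretreatment, vehicle and JAK2i libraries overlap in every panel, and all JAK1i, JAK3i, ruxolitinib and tofacitinib libraries lie below all vehicle libraries.

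With JAK1i, JAK3i, ruxolitinib and tofacitinib the GTPases were several times lower than with vehicle. All 10 fell with JAK1i (median log2 fold change -3.02, against 35.4% of all genes tested called lower), all 10 with JAK3i (median -2.92, against 33.1%) and all 10 with ruxolitinib (median -2.52, against 27.2%). With tofacitinib 9 of 10 fell (median -1.79, against 28.2%), and Irgm2 did not pass (log2 fold change -0.95, adjusted p = 0.139, which ranged from 0.0547 to 0.423 over the alternatives). None of the 10 was called higher, against 28.8, 31.7, 23.6 and 24.8% of all genes tested with JAK1i, JAK3i, ruxolitinib and tofacitinib. The median over all genes tested was between -0.06 and 0.02 in these comparisons. For each of the 10 genes, every library of each of these groups lay below every vehicle library, which held for 35.1% of all genes tested with JAK1i, 36.3% with JAK3i, 35.6% with ruxolitinib and 34.9% with tofacitinib. These comparisons share the vehicle libraries.

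**Figure D3:**
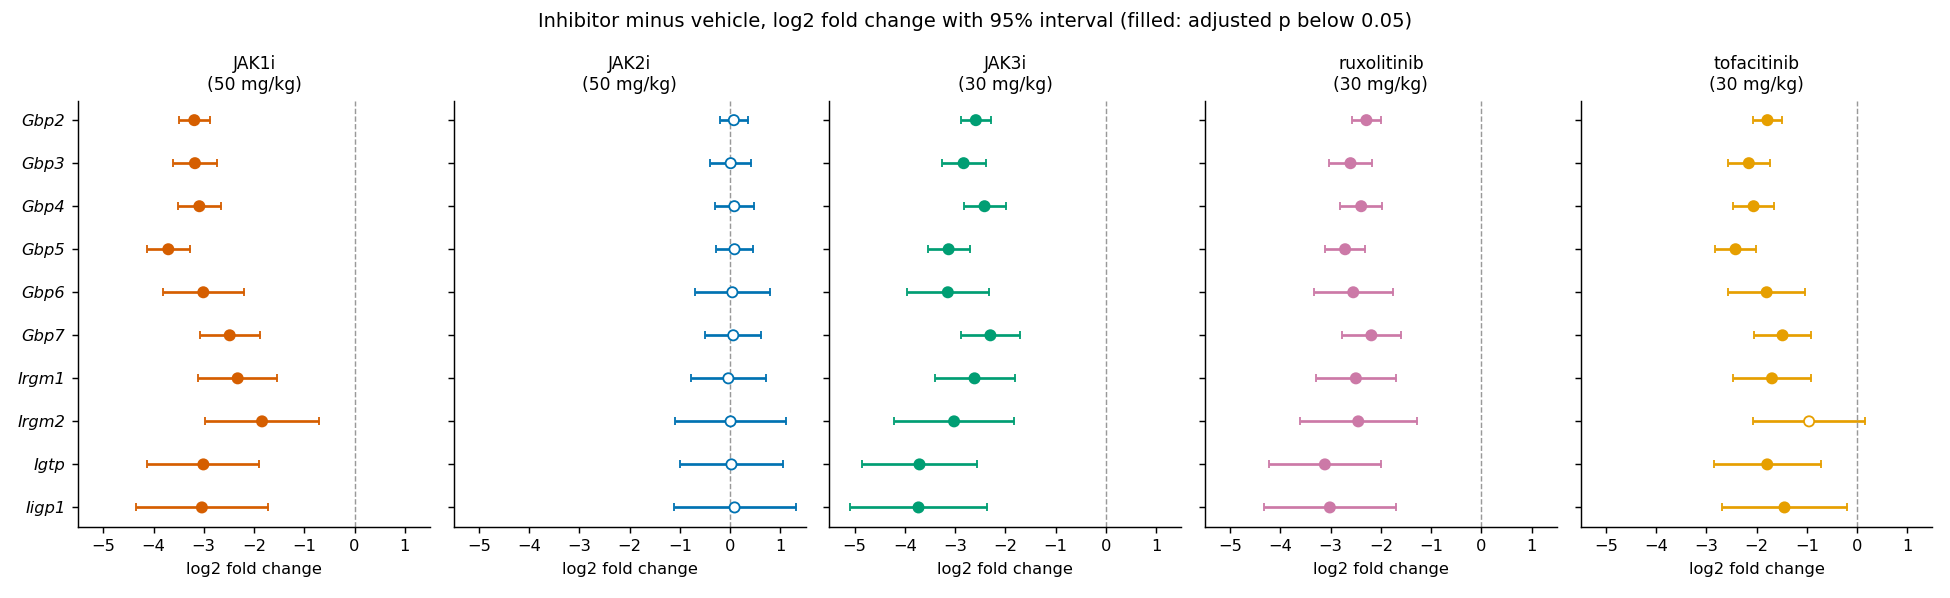
Log2 fold change against vehicle (x axis) of the 10 GTPases (y axis) for each inhibitor, with 95% intervals of the edgeR fit and filled points for an adjusted p below 0.05. JAK2i points lie near 0, and the intervals of the other inhibitors are narrow for Gbp2 to Gbp5 and wide for Irgm2, Igtp and Iigp1.

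Among the guanylate-binding proteins of chromosome 3, Gbp2 had CPM of 33.0, 23.6 and 23.4 in JAK1i, 38.8, 38.4 and 44.1 in JAK3i, 47.6, 51.8 and 49.6 in ruxolitinib and 67.6, 58.7 and 85.2 in tofacitinib. The libraries of JAK3i and of ruxolitinib lay close together, and those of JAK1i and of tofacitinib less so. Its log2 fold changes against vehicle were -3.19 (SE 0.15) with JAK1i, -2.59 (SE 0.14) with JAK3i, -2.29 (SE 0.14) with ruxolitinib and -1.78 (SE 0.14) with tofacitinib (adjusted p = 1.91e-12, 3.05e-11, 2.66e-10 and 3.88e-09 in the same order), that is, 9.11-fold, 6.005-fold, 4.89-fold and 3.44-fold lower. Gbp5, the lowest of the 10 per kilobase in every group, had CPM of 8.998, 4.89 and 7.06 in JAK1i, 12.8, 8.74 and 9.69 in JAK3i, 12.8, 14.8 and 14.0 in ruxolitinib and 15.2, 15.5 and 20.4 in tofacitinib. Its log2 fold changes were -3.71 (SE 0.21) with JAK1i, -3.13 (SE 0.20) with JAK3i, -2.71 (SE 0.19) with ruxolitinib and -2.42 (SE 0.19) with tofacitinib (adjusted p = 2.43e-11, 1.93e-10, 2.24e-09 and 6.09e-09 in the same order). Gbp3, a member of the same cluster, had CPM of 25.9, 11.6 and 13.3 in JAK1i, 25.1, 18.03 and 21.5 in JAK3i, 23.7, 24.6 and 27.1 in ruxolitinib and 34.6, 28.2 and 40.5 in tofacitinib. Replicate 1 of JAK1i was 2.21 times as high as replicate 2, while the other groups spread less. Gbp3 fell by 3.18 with JAK1i, 2.83 with JAK3i, 2.61 with ruxolitinib and 2.15 with tofacitinib on the log2 scale, with adjusted p of at most 5.24e-08. Gbp7, which has been tied to the assembly of the phagocyte NADPH oxidase in mouse macrophages, had CPM of 90.0, 39.2 and 33.4 in JAK1i, 67.8, 57.3 and 60.1 in JAK3i, 66.8, 67.6 and 64.8 in ruxolitinib and 121, 61.7 and 143 in tofacitinib. Vehicle libraries of Gbp7 were at 299, 293 and 318, and its log2 fold changes were -2.48, -2.30, -2.19 and -1.48 for JAK1i, JAK3i, ruxolitinib and tofacitinib (SE 0.28 to 0.29).

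The guanylate-binding proteins of chromosome 5 differed from each other in spread. Gbp4 had CPM of 249, 207 and 232 with vehicle, and of 36.4, 22.5 and 21.96 in JAK1i, 51.4, 31.5 and 46.2 in JAK3i, 42.5, 46.7 and 41.7 in ruxolitinib and 52.2, 43.0 and 69.8 in tofacitinib. Each treated group was compact, and the log2 fold changes were -3.09 (SE 0.21) with JAK1i, -2.41 (SE 0.20) with JAK3i, -2.39 (SE 0.20) with ruxolitinib and -2.06 (SE 0.20) with tofacitinib (adjusted p = 3.02e-10, 4.82e-09, 1.68e-08 and 6.44e-08 in the same order). Gbp6 had CPM of 228, 223 and 247 with vehicle, and of 56.3, 14.4 and 16.1 in JAK1i, 35.9, 19.8 and 23.4 in JAK3i, 40.0, 40.5 and 38.7 in ruxolitinib and 72.9, 36.9 and 91.0 in tofacitinib. Ruxolitinib libraries of Gbp6 lay closest together, whereas replicate 1 of JAK1i and replicates 1 and 3 of tofacitinib stood above the rest of their groups. The log2 fold changes of Gbp6 were -3.01 (SE 0.39) with JAK1i, -3.14 (SE 0.39) with JAK3i, -2.55 (SE 0.38) with ruxolitinib and -1.80 (SE 0.37) with tofacitinib (adjusted p = 1.39e-06, 8.26e-07, 1.62e-05 and 3.87e-04 in the same order), and without replicate 1 the value with JAK1i was -3.86. Of the 75-base stretches of Gbp6 transcripts, 42.7% also occur in other genes of the count table, mostly Gbp10 and Gbp11, so reads of these genes could be exchanged. This share was 7.80% for Igtp and smaller for the other 8 GTPases, and Igtp and Irgm2 have exons that overlap on the same strand.

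Of the immunity-related GTPases, Irgm1, a regulatory member needed for resistance to many intracellular pathogens in the mouse, had CPM of 286, 292 and 295 with vehicle and of 110.1, 37.2 and 26.9 in JAK1i, 53.1, 41.3 and 48.5 in JAK3i, 54.8, 53.2 and 46.5 in ruxolitinib and 99.1, 40.6 and 130.4 in tofacitinib. JAK3i and ruxolitinib libraries were close together, while replicate 1 of JAK1i and replicates 1 and 3 of tofacitinib stood above the other libraries of their groups. The log2 fold changes were -2.33 (SE 0.38) with JAK1i, -2.61 (SE 0.38) with JAK3i, -2.50 (SE 0.38) with ruxolitinib and -1.69 (SE 0.37) with tofacitinib (adjusted p = 2.11e-05, 6.27e-06, 2.10e-05 and 6.90e-04 in the same order). Irgm2, a regulatory member of the same subfamily, had CPM of 269, 258 and 290.4 with vehicle and of 177, 29.4 and 22.3 in JAK1i, 41.0, 25.8 and 34.0 in JAK3i, 52.0, 53.4 and 44.0 in ruxolitinib and 157, 43.8 and 221 in tofacitinib. Replicate 1 of JAK1i and replicate 3 of tofacitinib came closest to vehicle here. The log2 fold changes were -1.84 (SE 0.55) with JAK1i, -3.02 (SE 0.57) with JAK3i, -2.45 (SE 0.56) with ruxolitinib and -0.95 (SE 0.53) with tofacitinib (adjusted p = 0.00606, 1.23e-04, 0.00115 and 0.139 in the same order). The call of Irgm2 with JAK1i was lost where only JAK1i and vehicle were fitted (adjusted p = 0.118, range 2.47e-06 to 0.56 over the alternatives).

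Igtp had CPM of 125, 26.2 and 18.3 in JAK1i, 41.1, 27.3 and 35.6 in JAK3i, 55.003, 51.6 and 50.2 in ruxolitinib and 126, 42.4 and 226 in tofacitinib. It was the most abundant GTPase per kilobase with vehicle, and its log2 fold changes were -3.01 (SE 0.54) with JAK1i, -3.71 (SE 0.55) with JAK3i, -3.12 (SE 0.54) with ruxolitinib and -1.79 (SE 0.51) with tofacitinib (adjusted p = 5.99e-05, 8.21e-06, 8.45e-05 and 0.00599 in the same order). Iigp1 (chr18:60373616-60392634) had CPM of 181, 22.6 and 21.9 in JAK1i, 58.0, 31.2 and 50.7 in JAK3i, 77.3, 80.1 and 71.6 in ruxolitinib and 223, 59.8 and 398 in tofacitinib. With JAK3i it fell 13.2-fold, close to the fall of Igtp, and its log2 fold changes were -3.04 (SE 0.63) with JAK1i, -3.73 (SE 0.65) with JAK3i, -3.02 (SE 0.63) with ruxolitinib and -1.44 (SE 0.59) with tofacitinib (adjusted p = 3.04e-04, 5.11e-05, 5.46e-04 and 0.0471 in the same order). The call of Iigp1 with tofacitinib lay close to the threshold. It was lost without vehicle replicate 1, 2 or 3 and without tofacitinib replicate 1 or 2 (adjusted p = 0.0859, 0.073, 0.0829, 0.104 and 0.17, range 0.0132 to 0.17 over the alternatives), and kept without tofacitinib replicate 3 (log2 fold change -2.13, adjusted p = 0.0132). Igtp with tofacitinib was at -2.43 without replicate 3. Leaving out JAK1i replicate 1 moved the log2 fold change with JAK1i to -3.10 for Irgm1, -3.32 for Irgm2, -4.26 for Igtp and -4.72 for Iigp1.

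The GTPases differed in how far the libraries of JAK1i and of tofacitinib spread. In replicate 1 of JAK1i the CPM was 1.40 times that of replicate 2 for Gbp2, 1.62 times for Gbp4 and 1.82 times for Gbp5, but 2.95 times for Irgm1, 3.90 times for Gbp6, 6.001 times for Irgm2, 4.74 times for Igtp and 7.98 times for Iigp1. Replicate 3 of tofacitinib was 1.31 times replicate 2 for Gbp5 and 6.65 times for Iigp1, and replicate 1 was 0.978 and 3.73 times replicate 2 for the same genes. Of the guanylate-binding proteins, Gbp6 was nearer to the immunity-related GTPases in this respect. Gbp7 was close to Gbp3 in JAK1i, at 2.29 and 2.215 times for replicate 1 over replicate 2. For replicate 3 over replicate 2 of tofacitinib, Gbp7 (2.32) was closer to Gbp6 (2.465), with Gbp3 at 1.435. All of these are ratios of CPM after a prior count of 2 was added. These ratios describe single libraries and were not tested. The median ratio of replicate 1 to replicate 2 of JAK1i was 1.56 over 19 other genes of the family, 1.16 over 30 genes of the IFN-γ pathway, 1.27 over 16 T cell genes, 0.999 over 14 macrophage genes and 1.20 over 16 skeletal muscle genes. That of replicate 1 to replicate 3 was 1.42, 1.15, 0.613, 0.257 and 3.11 for the same lists. Of the other genes of the family, Gbp10, Tgtp1 and Tgtp2 had ratios of replicate 1 to replicate 2 of 4.62, 6.66 and 8.19. The part of cell composition in the spread was not tested.

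**Figure D4:**
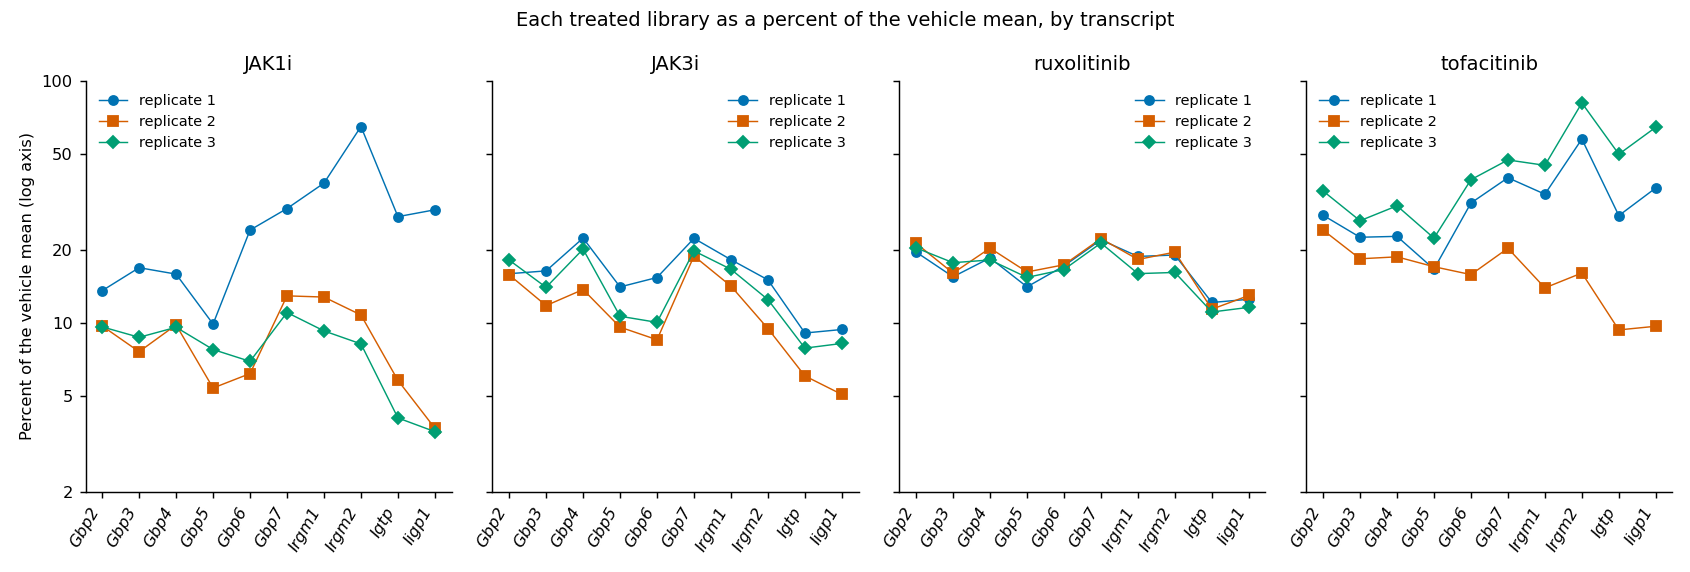
CPM of each GTPase (x axis) as a percent of its vehicle mean (y axis, log axis) in the 3 libraries of JAK1i, JAK3i, ruxolitinib and tofacitinib, with 1 line per library. The lines of ruxolitinib run close together and those of JAK3i in parallel. Replicate 1 of JAK1i and replicates 1 and 3 of tofacitinib rise further above the others from Gbp6 to Iigp1 than for Gbp2 to Gbp5.

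Inhibitors of the same dose were then compared with each other, in 4 pairs. At 50 mg/kg, JAK1i was lower than JAK2i for all 10 GTPases (median log2 fold change -3.09, against 35.4% of all genes tested called lower), from -1.85 (SE 0.55, adjusted p = 0.00586) for Irgm2 to -3.79 (SE 0.21, adjusted p = 1.99e-11) for Gbp5. Irgm2 was not called where only JAK1i and JAK2i were fitted (adjusted p = 0.118, range 2.49e-06 to 1 over the alternatives). No JAK1i library overlapped a JAK2i library for any of the 10 genes. The share of all genes tested with such a separation was not computed for this pair, and was 35.1% for JAK1i below vehicle. Without JAK1i replicate 1 the values of Gbp6, Irgm1, Irgm2, Igtp and Iigp1 were -3.91, -3.07, -3.33, -4.29 and -4.81.

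At 30 mg/kg, 8 of 10 GTPases were called lower with JAK3i than with tofacitinib (against 20.7% of all genes tested). The median log2 fold change of the 10 was -0.87, and none was called higher (against 18.7%). Gbp2 differed by -0.80 (SE 0.14, adjusted p = 9.27e-05), Gbp5 by -0.71 (SE 0.19, adjusted p = 0.00622) and Iigp1 by -2.28 (SE 0.61, adjusted p = 0.00582). Gbp4 and Irgm1 did not pass, with differences of -0.35 (95% interval -0.76 to 0.05) and -0.92 (95% interval -1.68 to -0.16). The number of GTPases called rested in part on tofacitinib replicate 3, without which Gbp2, Gbp5, Gbp6 and Irgm2 were called and Gbp3, Gbp7, Igtp and Iigp1 were not (adjusted p = 0.0643, 0.146, 0.0622 and 0.0527), the differences of Igtp and Iigp1 then being -1.28 and -1.60. Gbp7 was not called either without JAK3i replicate 2 or 3 or tofacitinib replicate 1 (adjusted p = 0.0656, 0.0619 and 0.0704), nor was Gbp3 without JAK3i replicate 2 (adjusted p = 0.0516), and Irgm1 was called without tofacitinib replicate 2 (adjusted p = 0.00593). Over all alternatives the adjusted p ran from 0.00363 to 0.763 for Gbp3, from 0.00213 to 0.901 for Gbp7, from 4.48e-04 to 0.928 for Igtp, from 6.09e-04 to 0.968 for Iigp1 and from 0.00593 to 0.903 for Irgm1.

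Between JAK3i and ruxolitinib no GTPase passed edgeR's test (0 called lower, against 19% of all genes tested, and 0 called higher, against 17.5%). An unadjusted p below 0.05 was found for 2 of the 10, against 8062 of the 17770 genes tested. All 10 means were lower with JAK3i (median log2 fold change -0.36). DESeq2 called 0 as well. The difference was -0.02 for Gbp4 (95% interval -0.42 to 0.38), -0.30 for Gbp2 (-0.58 to -0.02) and -0.71 for Iigp1 (-1.95 to 0.53). With only the libraries of JAK3i and ruxolitinib in the fit, 6 of the 10 were called lower with JAK3i, namely Gbp2, Gbp5, Gbp6, Irgm2, Igtp and Iigp1. In that fit 3694 of the 16705 genes tested were called lower and 3715 higher. Without JAK3i replicate 1 only Gbp5 was called (-0.59, adjusted p = 0.0394, range 0.0394 to 0.84 over the alternatives). Tofacitinib and ruxolitinib likewise gave no call (0 called lower, against 0.236% of all genes tested, and 0 called higher, against 0.135%). All 10 means were higher with tofacitinib (median 0.73), and 7 had an unadjusted p below 0.05, against 1984 of the 17770 genes tested. DESeq2 called 1 of the 10, Gbp2. Differences ran from 0.29 for Gbp5 (95% interval -0.10 to 0.69) to 1.57 for Iigp1 (0.32 to 2.82), so that the intervals left room for a change of over 2 log2 units in Irgm2, Igtp and Iigp1. Side by side, and with no comparison of JAK1i with the others since its dose differs, the mean CPM of Gbp2 was 26.6 ± 5.49 with JAK1i, 40.4 ± 3.23 with JAK3i, 49.7 ± 2.07 with ruxolitinib and 70.5 ± 13.5 with tofacitinib (SD, n = 3), and that of Iigp1 was 75.2 ± 91.8, 46.6 ± 13.8, 76.3 ± 4.36 and 227 ± 169.

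**Figure D5:**
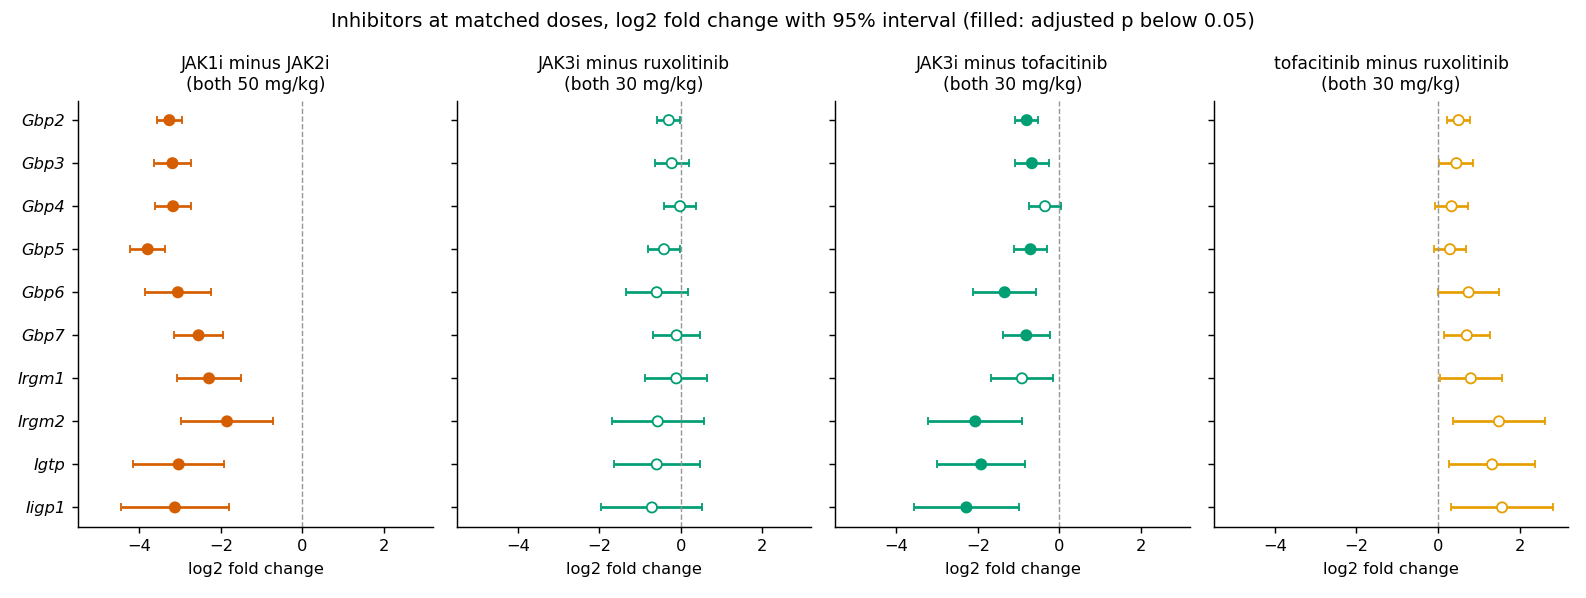
Log2 fold change (x axis) of the 10 GTPases (y axis) between inhibitors of the same dose, with 95% intervals of the edgeR fit and filled points for an adjusted p below 0.05. JAK1i lies far below JAK2i for every gene. JAK3i lies below tofacitinib for all 10 genes, of which 8 pass the test. No gene passes the test between JAK3i and ruxolitinib or between tofacitinib and ruxolitinib.

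The other genes of the family moved in the same direction for the most part. Of 27 names listed, 19 had a row and were tested. Gbp1, Irgb10 and Ifgga4 had none, but RefSeq gives them as other names of Gbp2b, Gm12250 and F830016B08Rik, which are among the 19. Ifgga3 is another name of Gm4841, which was tested but is not among the 19. Of the 19, 16 fell with JAK1i, 16 with JAK3i, 15 with ruxolitinib and 13 with tofacitinib, while 2, 1, 1 and 2 rose. Of all genes tested, 35.4, 33.1, 27.2 and 28.2% were called lower in the same order, and 28.8, 31.7, 23.6 and 24.8% higher. The medians of the 19 genes were -2.91, -2.04, -2.04 and -1.42. Gbp2b, the chromosome 3 neighbour that RefSeq also lists as Gbp1, went from 348 ± 14.9 CPM with vehicle to 31.8 ± 5.45 with JAK3i (SD, n = 3, log2 fold change -3.45, adjusted p = 9.09e-12). Gm12250, listed as Irgb10, an effector that acts on bacterial membranes in the mouse, went from 49.7 ± 2.02 to 2.36 ± 0.939 (-4.40, adjusted p = 9.59e-12). Ifi47 and Gbp8 had log2 fold changes with JAK3i of -2.65 and -4.22, Gbp9 of -1.80 and 9930111J21Rik2 of -2.04, and all 4 fell with JAK1i, ruxolitinib and tofacitinib too. The genes that rose were Atl1 with each of the 4 inhibitors and Atl2 with JAK1i and tofacitinib, which encode atlastins, GTPases of the same superfamily that fuse membranes of the endoplasmic reticulum (0.89 for Atl1 with JAK3i, adjusted p = 4.25e-04).

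Genes of the IFN-γ pathway fell in the same comparisons. Of 30 IFN-γ pathway genes, 28 fell with JAK1i, 27 with JAK3i, 28 with ruxolitinib and 28 with tofacitinib. Of all genes tested, 35.4, 33.1, 27.2 and 28.2% were called lower in the same order. Ifng itself, the ligand, went from 7.92 ± 0.92 CPM with vehicle to 0.0747 ± 0.0856 with JAK1i, 0.359 ± 0.0965 with JAK3i, 0.46 ± 0.0887 with ruxolitinib and 0.323 ± 0.143 with tofacitinib, and was at 8.27 ± 0.539 with JAK2i (SD, n = 3). The level with JAK1i rests on a few counts per library, and no fold change is given for it (adjusted p = 8.89e-11). Its log2 fold changes were -4.44, -4.09 and -4.60 with JAK3i, ruxolitinib and tofacitinib (adjusted p = 7.36e-10, 3.17e-09 and 1.19e-09). The receptor chains had log2 fold changes of at most 0.55 in size. Ifngr1 rose with JAK3i (0.55), ruxolitinib (0.32) and tofacitinib (0.53) and was at 0.14 with JAK1i (adjusted p = 0.165), and Ifngr2 fell with ruxolitinib (-0.31) and tofacitinib (-0.31). The kinase Jak2 fell with all 4 inhibitors (log2 fold change -0.71, -0.85, -0.70 and -0.66), and Jak1 with JAK1i (-0.27) and JAK3i (-0.36). Irf1, a transcription factor of the ISRE, fell by 2.25, 1.65, 1.59 and 1.40 on the log2 scale with JAK1i, JAK3i, ruxolitinib and tofacitinib. Socs1, a feedback inhibitor of JAK signaling, fell by 2.66, 2.46, 1.38 and 1.95. The chemokines Cxcl9, Cxcl10 and Cxcl11 had larger falls than each of the 10 GTPases, by 5.41, 5.73 and 6.62 with JAK3i, and Stat2, Tap2 and Nlrc5 by 2.18, 1.76 and 2.13.

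Machinery with which the GTPases act moved less evenly. Of 28 inflammasome, autophagy and prenylation genes, 20 fell and 3 rose with JAK1i, 17 fell and 5 rose with JAK3i, 13 fell and 2 rose with ruxolitinib, and 13 fell and 4 rose with tofacitinib. For comparison, with JAK1i, JAK3i, ruxolitinib and tofacitinib 35.4, 33.1, 27.2 and 28.2% of all genes tested were called lower and 28.8, 31.7, 23.6 and 24.8% higher, and the share of these 28 genes that rose was below that of all genes with each inhibitor. With JAK3i, Pycard, the inflammasome adaptor, fell by 1.65, Trim21, an antibody receptor in the cytosol, by 0.98 and the prenyltransferase subunits Fntb and Pggt1b by 0.93 and 0.76 on the log2 scale. The autophagy receptor Sqstm1 and the ubiquitin-like Gabarap rose by 0.81 and 0.49. Of 20 genes of the type I interferon response, 20, 18, 19 and 19 fell with JAK1i, JAK3i, ruxolitinib and tofacitinib, with medians of -2.93, -2.04, -2.19 and -2.07. With JAK3i the log2 fold changes included those of Ifih1 (-1.91), Isg15 (-4.22), Ddx58 (-1.43), Ifit1 (-3.34), Mx1 (-3.28) and Oasl2 (-2.79). With JAK2i no gene of these lists was called. The lists were chosen with earlier results of these data known.

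Over the 24 libraries, the 10 GTPases followed each other closely. The Pearson correlation of log2 CPM between pairs ran from 0.88 (Gbp5 and Irgm2) to 0.99 (Igtp and Iigp1), and that of the deviations from the group means from 0.50 (Gbp5 and Irgm1) to 0.99 (Irgm1 and Igtp). Among the genes most like the mean of the 10 were Gbp10 (r = 0.995), Tgtp1 (0.995), Erap1 (0.985), Gbp2b (0.985), Trim21 (0.982), Tgtp2 (0.980), Gm12250 (0.979), Xaf1 (0.978) and Psme1 (0.977). These values are a description over libraries that share their groups, of which 12 (pretreatment, vehicle and JAK2i) were high and 12 low for every GTPase. Reads of Tgtp1 and Tgtp2 or of Gbp6 and Gbp10 may be exchanged, since their sequences are close.

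Markers of cell types moved in the same comparisons, in which with JAK1i, JAK3i, ruxolitinib and tofacitinib 35.4, 33.1, 27.2 and 28.2% of all genes tested were called lower and 28.8, 31.7, 23.6 and 24.8% higher. Of 16 T cell genes, 16 fell with JAK1i, 15 with JAK3i, 13 with ruxolitinib and 14 with tofacitinib, while 1 rose with JAK3i. The medians of their log2 fold changes were -3.15, -3.26, -1.32 and -2.29 in the same order. Their summed CPM was 391 to 490.0 with vehicle, 394 to 472 with JAK2i, 34.8 to 85.4 with JAK1i, 144 to 151 with JAK3i, 135 to 163 with ruxolitinib and 95.7 to 109.4 with tofacitinib. The sums, in which abundant genes weigh most, thus give another order than the medians. Of 14 macrophage genes, 12 fell with JAK1i, 4 with ruxolitinib and 5 with tofacitinib, but 8 rose and 1 fell with JAK3i, in which the summed CPM was 3295 to 4035 against 1280 to 1467 with vehicle. The counts for macrophage genes with ruxolitinib and tofacitinib are near the share of all genes. All 10 GTPases were lower with JAK3i in libraries in which the macrophage sum was higher. Of 10 endothelial genes, 8 rose with JAK1i and 9 each with JAK3i, ruxolitinib and tofacitinib, and of 12 adipocyte genes, 12, 11, 12 and 12 rose. Of 10 keratinocyte genes, 6, 9, 5 and 6 fell, and their summed CPM was 28605 to 31976 with vehicle and 10727 to 13905 with JAK3i. Of 10 fibroblast genes, 6 fell with JAK1i and 1 with JAK3i, while 3, 2 and 3 rose with JAK3i, ruxolitinib and tofacitinib. The libraries of JAK1i were unlike each other here. Their fibroblast sums were 727, 765 and 4527 in replicates 1, 2 and 3, against 3615 to 5169 with vehicle. Their macrophage sums were 205, 216 and 864. None of the markers on these 6 lists was at 0 in all libraries of a group. The part of cell composition in the fall of the GTPases was not tested.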

How the data were processed

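Total RNA of skin biopsies was sequenced as paired reads of 75 bases. The submitters' processing notes name Subread, DESeq2 1.18.1 and mm10 (GRCm38). The authors deposited raw counts per gene, with no normalization, and a table of 5 ALADIN genes whose values are normalized counts rounded to whole numbers (a score), used here only to compare column names. The strand setting and annotation of the counting are not given in the sources used here. Symbols that a spreadsheet had turned into dates were restored for 26 genes. The 855 genes without a symbol stayed in the library sizes, where they made up no more than 0.608% of a library.

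Genes with a count of 10 in enough libraries (edgeR's filterByExpr) were scaled by TMM and fitted with edgeR 4.0.16 (R 4.3.3) in 1 quasi-likelihood model of 7 groups, with Benjamini-Hochberg adjustment over 17770 genes. DESeq2 1.42.0, other scaling, filters, sample sets and libraries left out were alternatives. CPM per kilobase used exon lengths of GENCODE vM21. Promoters were those of RefSeq. After the main fit, the method was also run on simulated counts with levels and spread taken from these data. The 10 GTPases were chosen by name, and other genes were named from their lists by the smallest adjusted p, besides those of fixed role in the pathway, of which 1 gene is not reported here. Members and lists were chosen with earlier results of these data known.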

Additional observations from a re-analysis of the deposited data

How the results depend on the processing

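The 10 GTPases that were called with JAK1i, JAK3i and ruxolitinib were also called under other scaling, filters and DESeq2, apart from Irgm2 with JAK1i where only 2 groups were fitted. With DESeq2 1 GTPase was called higher between tofacitinib and ruxolitinib. The count of genes called in that comparison was 66, and was 42 without a filter and 299 with DESeq2. It was 14 with only the 18 libraries after treatment, vehicle included, and 19 with the replicate number as a block in the same 18 libraries. With 1 library left out it was 2 to 248. The sources used here do not say whether the replicate numbers pair libraries across groups. Of 27 same-numbered pairs, 1 had a correlation over 0.1 in the deviations from the group means. This cannot settle the question, since paired libraries need not correlate. No other count of calls moved by over 1.5 times with the block. With the block the log2 fold change of Iigp1 with tofacitinib was -1.61 (adjusted p = 0.0568, range 0.0132 to 0.17). Between JAK3i and ruxolitinib the count of GTPases called lower was 6 with only both groups fitted (against 3694 of the 16705 genes tested) and 0 to 1 with 1 library left out (Gbp5, without JAK3i replicate 1). Between JAK3i and tofacitinib it was 4 to 9, the fewest without tofacitinib replicate 3.

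With the column names of the ALADIN table, chosen after seeing the data, GTPases called and genes called were 0 and 0 for JAK1i and for JAK3i against vehicle and for JAK1i against JAK2i, and 0 and 66 for JAK3i against tofacitinib, while 2 genes were called for JAK3i against ruxolitinib. Medians of the GTPases turned to 0.29, 1.30 and 0.48 for JAK1i against JAK2i, JAK3i against ruxolitinib and JAK3i against tofacitinib. For JAK1i against JAK2i the values were 0.21 for Gbp3, 0.064 for Gbp4, 0.31 for Gbp6, 0.29 for Gbp7, 0.36 for Irgm1, 0.66 for Irgm2, 0.29 for Igtp and 0.37 for Iigp1, while Gbp2 and Gbp5 stayed negative at -0.05 each. For JAK3i against tofacitinib they were 0.64 for Gbp2, 0.88 for Gbp3, 1.37 for Gbp5, 0.53 for Gbp6, 0.38 for Gbp7, 0.43 for Igtp and 0.23 for Iigp1, with 0.99 for Gbp4, 0.39 for Irgm1 and -0.34 for Irgm2. The 95% intervals of Irgm2, Igtp and Iigp1 were wider than those of Gbp2 to Gbp5 in each comparison. The fit has 3 libraries per group after treatment and shares the spread of a gene over all groups.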

Other observations

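Of the 17770 genes tested, 4 were at least 4 times as high in JAK1i replicate 1 as in JAK1i replicates 2 and 3, and in tofacitinib replicates 1 and 3 as in tofacitinib replicate 2. None of the 10 GTPases met this rule, and the 4 genes were chosen after their values were seen. They were Gm12185 (chr11:48904656-48927182) near Irgm1, and Gm4841 (chr18:60268301-60273267), F830016B08Rik (chr18:60288739-60303823) and BC023105 (chr18:60438431-60443320) near Iigp1 (GRCm38.p6). RefSeq lists Gm4841 and F830016B08Rik as GTPases of the Ifgga family and BC023105 as a pseudogene, and gives Irgb2b1 as another name of Gm12185. CPM of BC023105 were 109, 100.5 and 105 with vehicle, 417, 17.5 and 6.39 with JAK1i and 345, 12.2 and 310.2 with tofacitinib. In JAK1i replicate 1 and tofacitinib replicates 1 and 3 it was thus higher than in each vehicle library, while the other JAK1i and tofacitinib libraries were lower. Gm4841 had CPM of 161, 162 and 184 with vehicle, 182, 6.31 and 1.34 with JAK1i and 171, 4.23 and 397 with tofacitinib. F830016B08Rik had CPM of 98.8, 107 and 117 with vehicle, 176, 10.8 and 1.90 with JAK1i and 239.5, 5.06 and 198 with tofacitinib, and Gm12185 of 76.6, 83.7 and 99.7 with vehicle, 105, 11.7 and 2.07 with JAK1i and 98.8, 8.99 and 128 with tofacitinib. With edgeR, F830016B08Rik fell with JAK3i (-4.11, adjusted p = 0.00428) and ruxolitinib (-2.94, adjusted p = 0.0286), and was not called with JAK1i (-0.78, adjusted p = 0.509) or tofacitinib (0.46, adjusted p = 0.725). The cause of this spread was not tested.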
